A study of Rattus norvegicus with 8 samples.

Results

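The genes described are those of the p38 and c-Jun N-terminal kinase (JNK) branches of mitogen-activated protein kinase (MAPK) signaling in the spinal cord of stressed rats. The list held 10 genes: the p38 isoforms Mapk14, Mapk11, Mapk12 and Mapk13, the p38 substrate kinase Mapkapk2, the p38-activating kinases Map2k3 and Map2k6, and the JNK isoforms Mapk8, Mapk9 and Mapk10. Members were the probes whose gene name in the array files was one of these symbols. This gave 11 probes of 9 genes, of 16430 gene symbols with a probe. No probe carried the name Mapk8, and a probe that the files describe as MAP kinase 8 is given separately below. All samples were lumbar L6S1 spinal cord of male Wistar rats, 12 weeks old. The 4 rats of the stress group sat through water avoidance (WA) stress, a daily session of 1 h on a platform surrounded by water, for 10 days, and tissue was collected 24 h after the last session. The 4 rats of the control group were handled. Each rat was measured on 1 Agilent 1-color array. All 8 arrays lay on 1 slide, with the stress group in slide row 1 and the control group in slide row 2, so that slide row and group cannot be told apart. In both groups the replicate number was also the slide column.

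Levels are log2 intensities minus the 75th percentile of the same array on that scale, so that 0 is the signal of a probe at that percentile. Probes differ in how brightly they bind their target, so the level of a probe was compared with the same probe on other arrays. There were exceptions. Signals of cell type markers were summed over each list. Differences between the 5′ and 3′ probes of a transcript were taken on each array and then compared between arrays. Likeness between genes used levels centered on the mean of each probe. The difference of a probe is the mean log2 level of stressed rats minus that of control rats, with its standard error (SE). Its p value comes from limma and was corrected for the 23678 probes tested (Benjamini-Hochberg). Probes with an adjusted p below 0.1 are called. With all 8 arrays the exact permutation test is two-sided over the 70 ways to choose 4 of 8 arrays and gives no p below 0.0286. With an array left out it runs over fewer ways, and 0.0286 is then also the smallest p. These p values measure the spread between these 8 samples, and the number of arrays limits the precision.

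The p38 and JNK kinases are the last kinases of 3-step cascades that respond to cellular stress and inflammatory cytokines. MAP3K enzymes activate MAP2K enzymes, of which Map2k3 and Map2k6 phosphorylate p38 while Map2k4 and Map2k7 phosphorylate JNK, and p38α in turn activates Mapkapk2, a kinase that controls the stability and translation of cytokine mRNA. In the spinal cord, p38 activity in microglia and JNK activity in astrocytes and neurons are known from work on pain. These kinases are switched on by phosphorylation, which an mRNA array does not measure.

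The control arrays were not alike, and this touched most of the results on these kinases. On the first principal component of all tested probes, which held 54.1% of the variance, control replicate 2 had a score of -46.08, the stressed rats scores from -34.51 to -8.23, and control replicates 1, 3 and 4 scores of 52.06, 56.25 and 39.38. Control replicate 2 thus lay on the side of the stressed rats. The groups are those of the labels, and no value here shows whether the label of this array is right, which limits every control mean, SD and difference below. The same array was the highest of the 8 for 7 of the 11 member probes, compared to 32.2% of all tested probes. The median SD of the member probes was 0.25 in control rats and 0.08 in stressed rats, and over all tested probes it was 0.22 and 0.13. The difference of each member probe is therefore given with and without control replicate 2. That array was singled out because its levels lay with the stressed rats, so a p value without it follows from a choice made on the measured levels and is a description, not a test.

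None of the 11 member probes was called with all 8 arrays, while 3.74% of all tested probes were (885 of 23678, 655 of them higher in stressed rats). That count moved with the setting: leaving out any 1 array other than control replicate 2 gave between 0 and 72 called probes, normexp background correction gave 215, and a block for the slide column gave 0. All 11 member probes were well above background on all 8 arrays, and none was saturated. Of the 11 member probes, 8 had a higher mean in stressed rats and 3 a lower one, compared to 59.6% higher among all tested probes. The median difference of the member probes was 0.18, compared to 0.06 over all tested probes. Without control replicate 2 these medians were 0.30 and 0.09. At an unadjusted p below 0.05 in limma, 4 member probes passed, those of Mapk12, Mapk13 and Map2k6 with higher levels and 1 probe of Mapkapk2 with a lower level, compared to 20.3% of all tested probes. The groups did not overlap for 3 member probes, those of Mapk13, Map2k6 and the same probe of Mapkapk2, compared to 12.1% of all tested probes. Without control replicate 2, limma called 8 of the 11 member probes, 7 higher and 1 lower in stressed rats, compared to 42.4% of all tested probes (10036), 30.5% higher and 11.9% lower. The 3 probes that were not called without it were those of Mapk14 and Map2k3 and 1 of Mapk11.

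Scaling moved the zero line of these differences. Relative to scaling on the 75th percentile, scaling on the median of each array moved the median difference of all tested probes by -0.115, from 0.06 to -0.05, and the share of called probes that were higher in stressed rats was 74% with the former and 47.2% with the latter, and 49.4% with quantile normalization. Small differences have to be read relative to that shift.

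Mapk14 encodes p38α, the most widely expressed p38 isoform and the main activator of Mapkapk2. Its single probe, which targets the 3′ part of the transcript (from base 3361) at chr20:7000314-7000373 of the rn4 assembly, had log2 levels of 2.24, 2.29, 2.36 and 2.24 in stressed rats 1 to 4 and of 2.19, 2.62, 2.14 and 2.19 in control rats 1 to 4. Control replicate 2 was the highest array and the other 3 control rats lay just below all stressed rats, so that the groups overlapped through 1 rat. The mean log2 level was 2.28 ± 0.06 (SD, n = 4) in stressed rats and 2.29 ± 0.22 (SD, n = 4) in controls. The difference was -0.0039 ± 0.12 (SE; adjusted p = 0.988; 95% interval -0.27 to 0.26). Leaving out control replicate 2 gave 0.11 (adjusted p = 0.189), and the 5′ minus 3′ covariate gave -0.26 (adjusted p = 0.0964).

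Mapk11 encodes p38β, the closest relative of p38α. It had a pair of probes, 171 bases apart on the transcript, a 5′ probe at chr7:127444268-127444327 and a 3′ probe at chr7:127444097-127444156 of rn4, on the minus strand. The 5′ probe had log2 levels of -2.18, -2.17, -2.26 and -2.20 in stressed rats and of -2.48, -2.07, -2.35 and -2.62 in controls. The stressed rats lay close together, between control replicate 2 above and the other 3 controls below. Its difference was 0.18 ± 0.12 (SE; adjusted p = 0.406), 0.28 without control replicate 2 (adjusted p = 0.0293) and 0.098 without control replicate 4 (adjusted p = 0.690). It was near 0 with quantile normalization (0.037), scaling on the median (0.063) and a covariate for the 5′ to 3′ signal of each array (-0.019). The 3′ probe had log2 levels of -2.35, -2.38, -2.54 and -2.32 in stressed rats and of -2.83, -1.79, -2.58 and -2.38 in controls. Here control replicate 2 was above and control rats 1 and 3 were below all stressed rats, with control rat 4 among them. Its difference was -0.0049 ± 0.21 (SE; adjusted p = 0.992), and 0.20 without control replicate 2 (adjusted p = 0.235). The 5′ probe spans the end of the coding sequence and is printed with the stop codon in capitals, as it shows which end of the transcript the measurement reads.
Mapk11 5′ probe: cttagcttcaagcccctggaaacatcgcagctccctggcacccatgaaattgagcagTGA

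Mapk12 encodes p38γ, an isoform best known from skeletal muscle. Its probe, at chr7:127431024-127431083 of rn4, had log2 levels of -0.68, -0.45, -0.44 and -0.57 in stressed rats and of -1.68, -0.51, -1.42 and -1.39 in control rats. All stressed rats were above control replicates 1, 3 and 4 by more than the spread within either set, and control replicate 2 had the level of a stressed rat. The mean was -0.53 ± 0.11 (SD, n = 4) in stressed rats and -1.25 ± 0.51 (SD, n = 4) in controls. The difference of 0.72 ± 0.23 (SE), or 1.64-fold, was the largest of the 11 member probes with all 8 arrays, yet it was not called (adjusted p = 0.167, exact permutation p = 0.0857, 95% interval 0.18 to 1.26). It was 0.96 without control replicate 2 (adjusted p = 0.00111). With the 5′ minus 3′ value of each array, described below, as a covariate it was 0.15 (adjusted p = 0.490), and was no longer the largest. A second probe, which the files describe as MAP kinase 12 under an Ensembl transcript name and which therefore falls outside the rule, had log2 levels of -4.27, -4.15, -4.02 and -4.16 in stressed rats and of -5.04, -4.02, -4.90 and -5.15 in controls. It was picked after its values were seen. The same 3 control rats were low and control replicate 2 was again level with the stressed rats (difference 0.63 ± 0.24, SE; adjusted p = 0.203), and leaving that rat out gave 0.88 (adjusted p = 0.000968). Its difference was smaller with normexp background correction (0.34, adjusted p = 0.477), with quantile normalization (0.39, adjusted p = 0.188) and with the 5′ minus 3′ covariate (0.094, adjusted p = 0.770).

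Mapk13 encodes p38δ. Its probe, at chr20:7064096-7064155 of rn4, had log2 levels of -3.13, -3.20, -3.11 and -3.15 in stressed rats and of -3.64, -3.22, -3.78 and -3.68 in controls. The groups did not overlap, although control replicate 2 came within 0.02 log2 units of the lowest stressed rat. The mean was -3.15 ± 0.04 (SD, n = 4) in stressed rats and -3.58 ± 0.25 (SD, n = 4) in controls, a difference of 0.43 ± 0.12 (SE), or 1.35-fold. It was not called (adjusted p = 0.133, exact permutation p = 0.0286, 95% interval 0.15 to 0.71). With that rat left out the difference was 0.55 (adjusted p = 0.00122). It was 0.24 with quantile normalization (adjusted p = 0.107), 0.29 with normexp background correction (adjusted p = 0.394) and 0.16 with the 5′ minus 3′ covariate (adjusted p = 0.267), and the probe was called when dim probes were not filtered out (adjusted p = 0.0976).

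**Figure D1:**
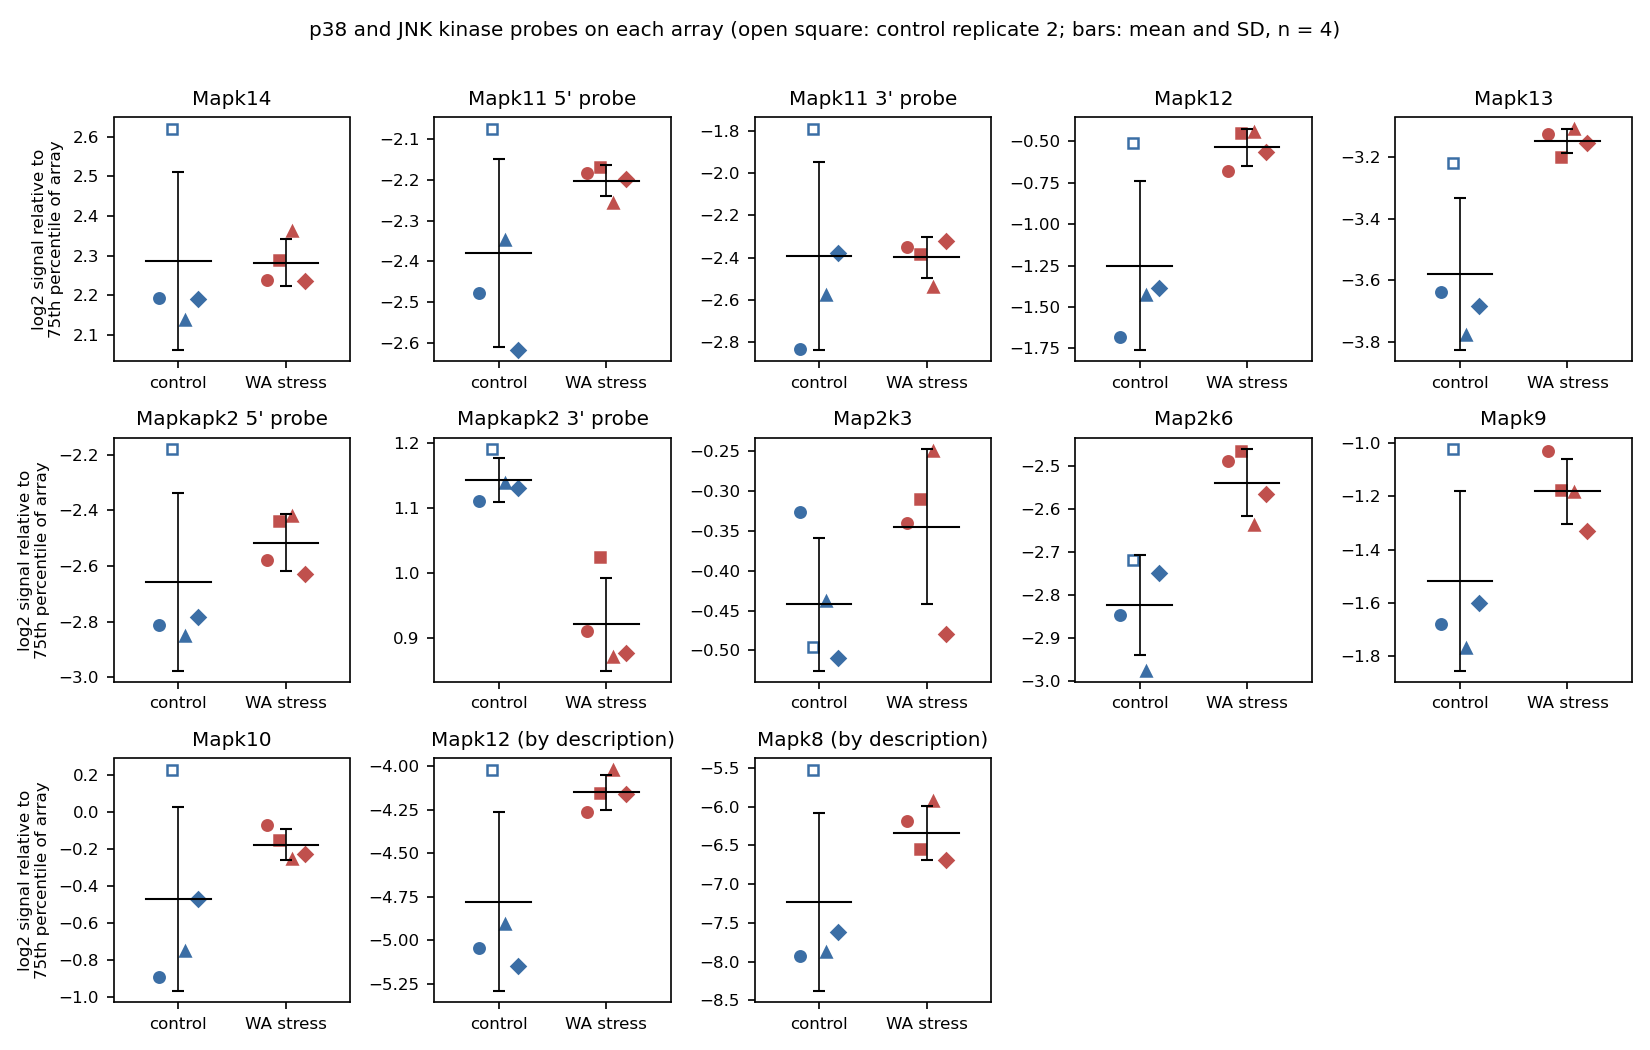
Level on the log2 scale, with 0 at the array's 75th percentile (y axis, scaled separately for each probe), for 13 probes in control rats (blue) and WA stressed rats (red), 1 point per rat, with the mean and SD of 4 rats in black. The open square is control replicate 2, which lies with or above the stressed rats for probes such as Mapk12 (-0.51) and Mapk10 (0.23), while for Mapk13, Map2k6 and the Mapkapk2 3′ probe the groups do not overlap.

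The p38 genes lie in neighboring pairs. In rn4 the Mapk14 and Mapk13 probes are 63.7 kb apart on the plus strand of chromosome 20, and the Mapk12 probe and the nearer Mapk11 probe are 13013 bases apart on the minus strand of chromosome 7. The differences were -0.0039 for Mapk14 beside 0.43 for Mapk13, and 0.18 and -0.0049 for the Mapk11 probes beside 0.72 for Mapk12. Whether the differences of neighbors were unequal was not tested.

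Of the kinases that activate p38, the groups were apart for Map2k6 and overlapped for Map2k3. The Map2k6 probe, at chr10:99973800-99973859 of rn4, had log2 levels of -2.49, -2.47, -2.64 and -2.56 in stressed rats and of -2.85, -2.72, -2.98 and -2.75 in control rats. Every stressed rat was above every control rat, and control replicate 2 was the highest control, 0.08 below the lowest stressed rat. The mean was -2.54 ± 0.08 (SD, n = 4) in stressed rats and -2.82 ± 0.12 (SD, n = 4) in controls. The difference of 0.28 ± 0.08 (SE), or 1.22-fold, was not called (adjusted p = 0.138, exact permutation p = 0.0286, 95% interval 0.09 to 0.48). It was 0.32 without control replicate 2 (adjusted p = 0.0205) and was smaller with quantile normalization (0.14, adjusted p = 0.383), scaling on the median (0.17, adjusted p = 0.268) and the 5′ minus 3′ covariate (0.19, adjusted p = 0.273). The Map2k6 probe is shown because it is a member for which the groups did not overlap. It has a reading frame free of stop codons over its 60 bases, as does every other member probe. Such a frame need not be the coding one. In the Mapk11 5′ probe it is not the frame of the stop codon shown above.
Map2k6 probe: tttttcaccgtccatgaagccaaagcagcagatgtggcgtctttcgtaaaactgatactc

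The Map2k3 probe, at chr10:47096527-47096586 of rn4, had log2 levels of -0.34, -0.31, -0.25 and -0.48 in stressed rats and of -0.33, -0.50, -0.44 and -0.51 in controls. The groups overlapped, with stressed rat 4 among the controls and control rat 1 among the stressed rats. The difference was 0.10 ± 0.08 (SE; adjusted p = 0.496, 95% interval -0.09 to 0.28), and 0.08 without control replicate 2. With scaling on the median of each array it was -0.017, so that its direction depends on the scaling. Whether Map2k6 and Map2k3 differed in their response was not tested.

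Mapkapk2, the kinase activated by p38α, was measured by a pair of probes that gave opposite directions. The 5′ probe starts at base 1369 of the transcript (chr13:43996389-43996448 of rn4) and the 3′ probe at base 2505 (chr13:43995253-43995312), both on the minus strand. The 3′ probe had log2 levels of 0.91, 1.03, 0.87 and 0.88 in stressed rats and of 1.11, 1.19, 1.14 and 1.13 in controls. Every stressed rat was below every control rat, and the 4 controls were close together, control replicate 2 included. The mean was 0.92 ± 0.07 (SD, n = 4) in stressed rats and 1.14 ± 0.03 (SD, n = 4) in controls. The difference of -0.22 ± 0.07 (SE), or 0.858-fold, was not called (adjusted p = 0.142, exact permutation p = 0.0286, 95% interval -0.37 to -0.07). It was -0.21 without control replicate 2 (adjusted p = 0.0367). The call at 0.1 was also made with scaling on the median (-0.34, adjusted p = 0.0863) and with a variance trend and robust estimation (adjusted p = 0.0835).

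The 5′ probe of Mapkapk2 had log2 levels of -2.58, -2.44, -2.42 and -2.63 in stressed rats and of -2.81, -2.18, -2.85 and -2.78 in control rats. Control replicate 2 was the highest of all arrays and the other 3 controls were the lowest. The difference was 0.14 ± 0.16 (SE; adjusted p = 0.622), and 0.30 without control replicate 2 (adjusted p = 0.0191). It was 0.088 without control replicate 1 and 0.075 without control replicate 3. It was -0.015 with quantile normalization, 0.026 with scaling on the median and -0.23 with the 5′ minus 3′ covariate. Its sequence is given because this is the probe of the pair that reads the upstream part of the transcript. It has 2 reading frames free of stop codons over its 60 bases. The 3′ probe has 3, so that such a frame does not set the 5′ probe apart.
Mapkapk2 5′ probe: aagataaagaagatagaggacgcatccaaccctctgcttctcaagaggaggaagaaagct

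Among the JNK genes, Mapk9 encodes JNK2, which is made in most tissues. Its probe, at chr10:35378241-35378300 of rn4, had log2 levels of -1.03, -1.18, -1.18 and -1.33 in stressed rats and of -1.68, -1.02, -1.77 and -1.60 in controls. Control rats 1, 3 and 4 were below all stressed rats, and control replicate 2 was the highest array. The mean was -1.18 ± 0.12 (SD, n = 4) in stressed rats and -1.52 ± 0.34 (SD, n = 4) in controls, a difference of 0.34 ± 0.17 (SE; adjusted p = 0.290, 95% interval -0.05 to 0.72). Without control replicate 2 it was 0.50 (adjusted p = 0.00551), with scaling on the median 0.22, and with the 5′ minus 3′ covariate it turned to -0.057.

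Mapk10 encodes JNK3, the isoform found mainly in neurons. Its probe had log2 levels of -0.07, -0.15, -0.25 and -0.23 in stressed rats and of -0.89, 0.23, -0.75 and -0.47 in controls. As for Mapk9, all stressed rats lay between control replicate 2 and the other controls. The mean was -0.17 ± 0.08 (SD, n = 4) in stressed rats and -0.47 ± 0.50 (SD, n = 4) in controls, and the difference was 0.30 ± 0.23 (SE; adjusted p = 0.476, 95% interval -0.23 to 0.82). It was 0.53 without control replicate 2 (adjusted p = 0.0112), 0.16 without control replicate 1 and 0.18 with scaling on the median, and turned to -0.27 with the 5′ minus 3′ covariate. In the files the interval of this probe runs over 1767 bases of chromosome 14, from 7996938 to 7998704 in rn4, although the probe has 60 bases. The other 10 member probes each have an interval of 60 bases.

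Mapk8 encodes JNK1. A probe that the files describe as MAP kinase 8 under an Ensembl transcript name, at chr16:8930199-8930258 of rn4, was spotted 10 times on each array, and it was picked after its values were seen. It was well above background on 4 of 4 arrays of stressed rats and on 1 of 4 arrays of controls, and thus passed the filter on dim probes mainly through the stressed rats. Its log2 levels were -6.19, -6.55, -5.93 and -6.69 in stressed rats and -7.93, -5.52, -7.87 and -7.62 in controls, where only control replicate 2 was measured above background. That array was the highest of the 8. The difference of 0.89 ± 0.53 (SE; adjusted p = 0.361, 95% interval -0.32 to 2.11) rests on 3 control arrays not well above background, and was 0.17 with normexp background correction. No difference is given without control replicate 2, since no other control array measured the probe above background. The probes of the JNK genes are shown together, since they read different positions in the transcripts of 3 related kinases. No run of more than 9 bases is shared between any of the 13 probes. The probes were compared only with each other and not with the transcripts of the other kinases, so this does not show how specific they are.
Mapk8 probe by description: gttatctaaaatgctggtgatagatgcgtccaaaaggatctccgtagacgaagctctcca
Mapk9 probe: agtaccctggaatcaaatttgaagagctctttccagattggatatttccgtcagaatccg
Mapk10 probe: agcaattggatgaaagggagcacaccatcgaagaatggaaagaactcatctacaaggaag

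**Figure D2:**
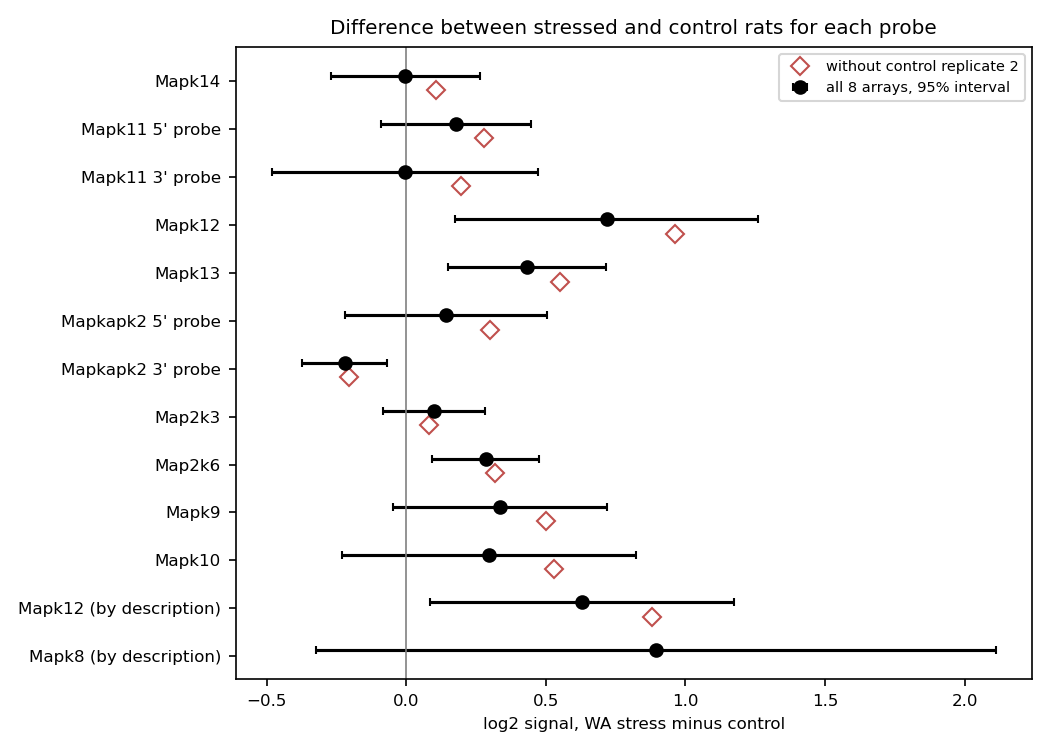
Mean log2 signal of WA stressed minus control rats (x axis) for each of 13 probes, with all 8 arrays (black points, bars are 95% intervals from limma) and without control replicate 2 (open red diamonds, not drawn for the probe described as MAP kinase 8). The interval lies above 0 for Mapk12 (0.18 to 1.26), Mapk13 and Map2k6 and for the Mapk12 probe found by description, and below 0 for the 3′ probe of Mapkapk2 (-0.37 to -0.07), and leaving out control replicate 2 moves Mapk12 from 0.72 to 0.96.

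The ratio of signal between 5′ and 3′ probes of a transcript differed between arrays. For 1885 transcripts with tested probes at least 300 bases apart, the median log2 ratio of 5′ to 3′ probe, centered over the arrays, was 0.17, 0.15, 0.17 and 0.09 in stressed rats 1 to 4 and -0.30, 0.22, -0.30 and -0.18 in control rats 1 to 4. Control rats 1, 3 and 4 thus had relatively less signal at 5′ probes than all stressed rats, and control replicate 2 had the most (exact permutation p = 0.143). The Mapkapk2 probes, 1136 bases apart, gave log2 differences, 5′ minus 3′, of -3.49, -3.46, -3.29 and -3.51 in stressed rats and of -3.92, -3.37, -3.99 and -3.91 in controls. The same 3 control rats were low. The mean difference between probes was -3.44 ± 0.10 (SD, n = 4) in stressed rats and -3.80 ± 0.29 (SD, n = 4) in controls, higher by 0.36 in stressed rats (exact permutation p = 0.114, 0.228 adjusted over the 2 pairs). Without control replicate 2 it was higher by 0.51 (exact permutation p = 0.0286, 0.0572 adjusted over the 2 pairs).

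The Mapk11 probes, which are only 171 bases apart, gave differences of 0.17, 0.22, 0.28 and 0.12 in stressed rats and of 0.36, -0.29, 0.23 and -0.24 in controls. Here control replicate 2 was the lowest array, control rat 1 was the highest, above all stressed rats, and control rat 3 lay among them. The mean was 0.20 ± 0.07 (SD, n = 4) in stressed rats and 0.01 ± 0.33 (SD, n = 4) in controls (exact permutation p = 0.4, also 0.4 adjusted over the 2 pairs). Without control replicate 2 the stressed rats were higher by 0.08 (exact permutation p = 0.8). When the 5′ minus 3′ value of each array was entered as a covariate, the differences of 4 member probes changed direction, to -0.057 for Mapk9, -0.27 for Mapk10, -0.23 for the 5′ probe of Mapkapk2 and -0.019 for the 5′ probe of Mapk11. With it the differences of Mapk12 (0.15, adjusted p = 0.490), Mapk13 (0.16, adjusted p = 0.267) and Map2k6 (0.19, adjusted p = 0.273) were still higher in stressed rats and not called. The 3 member probes called in that fit were all lower in stressed rats, Mapk14 (-0.26, adjusted p = 0.0964), the 3′ probe of Mapk11 (-0.48, adjusted p = 0.0921) and the 3′ probe of Mapkapk2 (-0.26, adjusted p = 0.0980). Of all tested probes, 10.1% were called in the same fit, and 5.23% were called lower in stressed rats. The 8 arrays give each of these values few degrees of freedom. The covariate was low in control rats 1, 3 and 4 and high in all stressed rats and in control replicate 2. Differences in that fit therefore rest largely on the stressed rats against control replicate 2, and their calls and directions depend on that array.

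**Figure D3:**
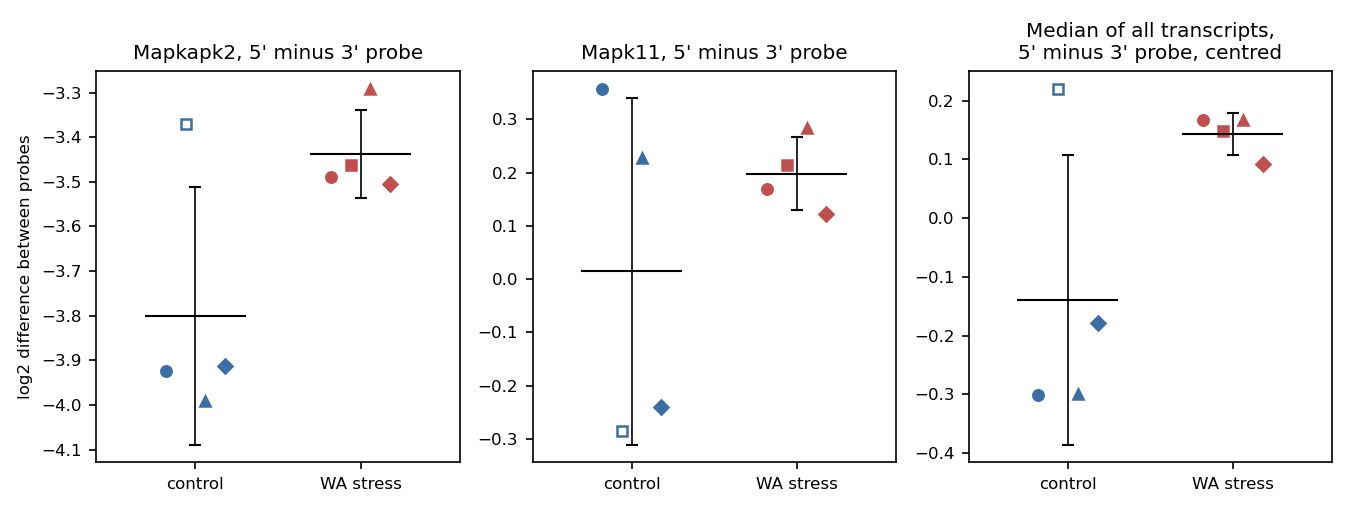
Log2 difference between 5′ and 3′ probes of the same transcript (y axis) for Mapkapk2, for Mapk11 and as the centered median of 1885 transcripts, in control (blue, control replicate 2 open) and WA stressed rats (red), with the mean and SD of 4 rats. For Mapkapk2 and for the median, control rats 1, 3 and 4 lie below all stressed rats (-3.99 to -3.91 for Mapkapk2) and control replicate 2 lies with them or above.

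The genes around these kinases in the pathway were read from a list of 54 genes. A probe was found for 53 of them, 48 by gene name, 4 by a synonym and 1, Rps6ka4, by a RefSeq accession whose name in the array files is Ccdc88b, and all 53 were tested by their brightest probe. With all 8 arrays 1 gene was called in limma, lower in stressed rats, and none higher, while 9 had an unadjusted p below 0.05, compared to 19.7% of all gene symbols. Among all 13419 gene symbols tested in the same way, 2.34% were called higher and 1.27% lower. The median difference of the 53 genes was 0.08, and 33 were higher and 20 lower in stressed rats, compared to 54.1% higher among all gene symbols. That balance depends on the scaling, as the shift of -0.115 with scaling on the median is larger in size than 0.08. Without control replicate 2, 26 of the 53 were called, 21 higher and 5 lower, compared to 41% of all gene symbols, 26.4% higher and 14.6% lower.

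The called gene was Mknk1, which encodes a kinase that p38 and ERK activate and that phosphorylates the translation factor eIF4E. Its log2 levels were -1.03, -1.002, -1.08 and -1.15 in stressed rats and -0.71, -0.84, -0.82 and -0.75 in control rats. Every stressed rat was below every control rat, and control replicate 2 was the lowest control, nearest to the stressed rats. Mknk1 fell by 0.29 ± 0.07 (SE), or to 0.82-fold (adjusted p = 0.0947, exact permutation p = 0.0286). The call was close to the threshold: the adjusted p was between 0.185 and 0.250 when any 1 array other than control replicate 2 was left out, and 0.0108 without control replicate 2. Mknk1 was also not called with normexp background correction (adjusted p = 0.200), with the slide column as a block (adjusted p = 0.230) or with the 5′ minus 3′ covariate (adjusted p = 0.116).

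By role, the 18 tested MAP3K and TAO kinases and TAK1 partners, which start the cascades, had a median difference of 0.18. Of these, 15 were higher and 3 lower in stressed rats. None was called at the threshold, although 5 had an unadjusted p below 0.05, Tab1 with a lower mean in stressed rats (-0.18) and the others with higher means. Leaving out control replicate 2 gave 12 called of the 18, 10 of them higher. Among all gene symbols 54.1% had a higher mean in stressed rats and 19.7% had an unadjusted p below 0.05. Without that rat 26.4% were called higher and 14.6% lower. These are the shares to set beside the counts of every group. Both JNK-activating kinases, Map2k4 and Map2k7, had higher means in stressed rats with a median of 0.38, and neither was called or had an unadjusted p below 0.05, while without control replicate 2 both were called, higher in stressed rats. The 4 scaffold genes that hold JNK cascades together had a median of 0.38, with 3 higher and 1 lower and again none called or below 0.05 unadjusted. Without that control rat 3 of the 4 were called, all higher. The 6 kinases downstream of p38, Mknk1 among them, had a median of -0.08, with 2 higher and 4 lower, and 3 were called without that rat, 1 higher and 2 lower. The 14 transcription factors and other targets had a median of 0.0078, with 8 higher and 6 lower. Of these 14, 1 had an unadjusted p below 0.05 and none was called, and 3 were called, all higher, without that rat. The 9 phosphatases that switch the kinases off had a median of -0.01, with 3 higher and 6 lower, and 2 of the 9, both of them higher, at an unadjusted p below 0.05. None of them was called, and 3 were called without that rat, 2 higher and 1 lower. The median of all gene symbols was 0.02. Whether the groups of genes differed from each other was not tested.

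**Figure D4:**
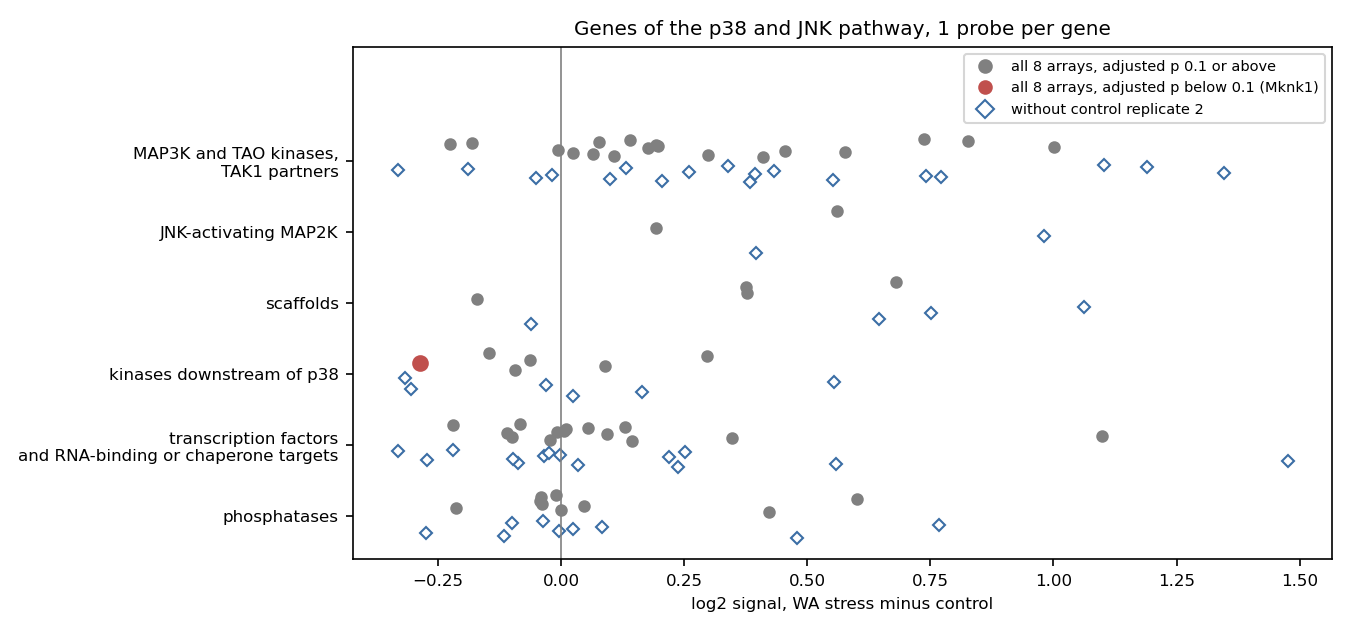
Mean log2 signal of WA stressed minus control rats (x axis) for 53 genes of the p38 and JNK pathway, 1 probe per gene, grouped by role (y axis), with all 8 arrays (filled points) and without control replicate 2 (open diamonds). Mknk1 (red, -0.29) is the 1 gene with an adjusted p below 0.1. The diamonds reach 1.35 in the MAP3K group and 1.48, for Elk1, in the group of transcription factors and other targets.

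All markers of neurons (6 of 6), motor neurons (4 of 4), astrocytes (6 of 6), microglia (6 of 6) and oligodendrocytes (5 of 5) were well above background on all 8 arrays. The cells in which these kinases are made can differ in number between samples, and in bulk tissue fewer cells of a type and less RNA per cell cannot be told apart. Summed signals weight each marker by the brightness of its probe and are given as a description of each array. The summed signal of the 6 neuronal markers, in multiples of the 75th percentile of the array and with Snap25 the brightest on average, was 71.5, 75.1, 61.7 and 70.5 in stressed rats and 57.3, 58.9, 57.2 and 60.3 in controls. All stressed rats were above all controls (exact permutation p = 0.0286). The sum was carried by the bright probes of Snap25 (difference 0.20) and Nefl (0.57), while Rbfox3 (-0.30), Slc17a6 (-0.26) and Gad1 (-0.18) had lower means in stressed rats. Control replicate 2 was the lowest array for Snap25 (4.54) and lay within the range of the stressed rats for Nefl (4.59) and Syt1 (-3.33). None of the 6 genes was called, and their median difference was 0.01. With control replicate 2 left out, 3 of the 6 were called.

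The summed signal of the 6 astrocyte markers, with Aqp4 the brightest on average, was 65.2, 62.1, 75.3 and 56.9 in stressed rats and 55.5, 61.4, 52.5 and 51.2 in controls (exact permutation p = 0.0571). Slc1a3 (-0.20) and Aldh1l1 (-0.08) had lower means in stressed rats, and the other astrocyte markers had higher means. The 6 microglial markers, with Aif1 the brightest on average, summed to 7.54, 6.64, 8.42 and 8.01 in stressed rats and to 6.55, 8.37, 6.68 and 7.83 in controls (exact permutation p = 0.657). The microglial sum, of the cells best known for p38 in pain, thus overlapped between the groups. No astrocyte or microglial marker was called with all 8 arrays, and 3 of 6 and 1 of 6 were called without control replicate 2. The 5 oligodendrocyte markers had differences from 0.035 to 1.69, of which Mog (0.90) was called, and the 4 endothelial markers from 0.15 to 0.40, of which Pecam1 (0.40) was called. Of the 3 tested muscle markers, Tnnt3 (-1.10) was called, beside differences of 0.75 for Acta1 and -0.0088 for Ckm. These genes are named after their values were seen, and the share called among all gene symbols was 2.34% higher and 1.27% lower. None of the motor neuron, meningeal or red blood cell markers was called. Without control replicate 2 the called markers were 3 of 5 for oligodendrocytes, 3 of 4 for endothelial cells, 2 of 3 for muscle and 3 of 4 for motor neurons, compared to 41% of all gene symbols, and none for the meningeal and red blood cell lists. Skeletal muscle, in which Mapk12 is prominent, had a sum between 0.0936 and 0.116 in stressed rats and between 0.0747 and 0.137 in controls, with Acta1 the brightest on average, and its marker Myh4 was not well above background on any array. The part of cell numbers in the levels of the kinases was not tested.

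The genes whose levels over the 8 arrays were most like those of Mapk14 were Apex1, MGC112715, Plxnb2, Gemin4 and Gtf3c5. Likeness was the root mean square difference from the Mapk14 probe after each probe was centered on its own mean, over 13418 other gene symbols. It was 0.03 for Apex1, MGC112715, Plxnb2 and Gemin4 and 0.04 for Gtf3c5, compared to a median of 0.22. In Mapk14 control replicate 2 was 0.34 above the mean, and genes chosen for a small distance from it share that level by the choice itself (0.27 to 0.35 above the mean in the 5 genes, with the other 7 arrays within 0.16).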

How the data were processed

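Spinal cord RNA of each of the 8 rats was hybridized to 1 Agilent 1-color array. Per the file headers, the authors processed the deposited intensity values in Feature Extraction 10.7.3.1, which subtracts the background and a spatial trend array by array. Their table of values holds this signal in rounded form. Neither source was found to be normalized across arrays. The study's methods name dChip and no covariate.

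Control spots (4259) were left out, and outlier spots were set to missing. The log2 processed signal minus the 75th percentile of each array was averaged over the spots of a probe. Probes well above background on at least 4 of 8 arrays, regardless of group, were tested (23678 of 30367). Group differences were fitted in limma 3.58.1 under R 4.3.3, with Benjamini-Hochberg adjustment over all tested probes. The fit was tested on simulated data with independent noise for each probe. No simulated array stood apart over many probes, so this test does not cover an array such as control replicate 2. Single values and differences between probes of a gene were compared with exact permutation tests.

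The rule for named genes took all members with every probe, called genes of the pathway list (at most 8), and the 5 genes most like Mapk14. The brightest tested probe stood for other genes. Older names in the files were matched through RefSeq synonyms and accessions (GRCr8 table). Positions are those of the files on rn4, and exons and introns were not analysed. The members and lists were chosen with earlier results of these data known. Alternatives covered background correction, scaling, the table of values, filters on dim probes, variance estimation, array weights, replicate number as a block, the 5′ minus 3′ difference and leaving out each array. The result of 1 marker list is not reported here.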

Additional observations from a re-analysis of the deposited data

Results flagged for a closer look

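Among the 22 groups of 4 rats formed by the 11 member probes in each condition, 2 held a rat far from the other 3, judged by its gap to the nearest other rat divided by the range of the group. Chance gives about 1 in 20 such groups, here 1.1. Both were control replicate 2, which was high. The ratio was 0.896 for the 5′ probe of Mapkapk2 and 0.888 for Mapk14, each above Dixon's critical value for 4 samples. The probes were measured on the same arrays, so these 2 are not independent of each other. Outside this count, the ratio was 0.872 in controls for the probe described as MAP kinase 8, where the 3 controls other than replicate 2 were not well above background and which was picked after its values were seen.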

How the results depend on the processing

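With the table of values the same 885 probes were called, no p38 or JNK probe, and Mknk1 of the pathway list. Over all probes, 215 were called with normexp background correction (0.908%), 1266 with scaling on the median (5.35%), 3010 with no filter on dim probes (9.92%), 1079 with the filter on all 8 arrays (4.9%), 1295 with a variance trend and robust estimation (5.47%), 11983 with array weights (50.6%, with a weight of 0.107 for control replicate 2) and 2390 with the 5′ minus 3′ covariate (10.1%). Beside these shares, the called p38 and JNK probes were 1 with scaling on the median, 1 with no filter, 1 with a variance trend and robust estimation, 8 with array weights and 3 with the 5′ minus 3′ covariate. Adding the 2 probes found by description, an alternative chosen after seeing the data, gave 0 called and 5 at an unadjusted p below 0.05. Of the pathway list, with the share of all gene symbols in the same fit, 0 were called with normexp (0.805%), 4 with no filter (6.2%), 2 with the filter on all 8 arrays (4.78%), 2 with a variance trend and robust estimation (5.63%), 27 with array weights (49.4%) and 5 with the 5′ minus 3′ covariate (10.6%), where Mknk1 was not among them (adjusted p = 0.116). With the replicate block, 0 probes, 0 member probes and 0 pathway genes were called, Mknk1 included (adjusted p = 0.230). The replicate number is also the slide column in both groups, so that this block is one for slide column. The deviations of same-numbered rats from their group means correlated at 0.10, 0.12, -0.09 and 0.31 over probes, and the numbers were not taken to pair the rats.

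Leaving out 1 array gave between 0 and 10036 called probes, between 0 and 8 called member probes and between 0 and 26 called pathway genes, and in each case the highest value was without control replicate 2. Without any other single array at most 72 probes and no member probe or pathway gene were called. The Mapkapk2 difference between probes ranged from 0.30 to 0.51 with an unadjusted exact p below 0.05 only without control replicate 2 (0.0572 adjusted over the 2 pairs), and that of Mapk11 ranged from 0.08 to 0.30. Differences near 0 changed sign. That of Mapk14 ranged from -0.053 to 0.11 over the left-out arrays and was 0.10 with array weights. That of the Mapk11 3′ probe ranged from -0.15 to 0.20, and was 0.0073 with normexp and 0.17 with array weights. The 5′ probe of Mapkapk2 was at -0.015 with quantile normalization and Map2k3 at -0.017 with scaling on the median. With the 5′ minus 3′ covariate the differences were -0.23 for the 5′ probe of Mapkapk2, -0.27 for Mapk10, -0.057 for Mapk9, -0.019 for the 5′ probe of Mapk11 and -0.44 for the probe described as MAP kinase 8, a value that rests on 3 control arrays not well above background. Those of Mapk12, Mapk13, Map2k6 and the 3′ probe of Mapkapk2 had the same direction with normexp, quantile normalization, scaling on the median, array weights, the 5′ minus 3′ covariate and without each single array. The table of values, both filters, the variance trend and the block leave these differences as they were, so they bear only on the calls. With the 5′ minus 3′ covariate the comparison rests largely on the stressed rats against control replicate 2, as stated above. The cause of these changes was not tested.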
